A study of Mus musculus with 6 samples.

Results

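The genes described here are 9 transcription factor genes that act in the pancreatic acinar lineage, not all of them particular to it: the subunits of the PTF1 complex (Ptf1a, Rbpjl, Rbpj and the E protein genes Tcf3 and Tcf12) and the acinar factors Nr5a2, Bhlha15, Gata4 and Gata6. They were chosen by symbol, all 9 have a row among the 20596 rows with a gene symbol, and all 9 were among the 16169 genes tested. RNA sequencing had been done on 266.6 cells, a mouse line from an acinar tumour of an animal whose elastase promoter drove a viral T antigen, grown in DMEM with serum, in 3 libraries of cells given medium conditioned by cancer-associated fibroblasts (CAF_CM, for up to 40 days) and 3 libraries of control cells of the same line. The labels give no culture time for the control cells, so the conditioned medium and the length of culture cannot be told apart. They also name no separate cultures or clones, and p-values therefore measure the spread among these libraries alone, part or all of which may be technical. Values are normalized counts, read counts that the authors had divided by 1 factor per library.

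PTF1 is a complex of 3 kinds of protein. PTF1A, a basic helix-loop-helix protein made in few tissues, pairs with an E protein to bind an E-box, and a protein of the RBPJ family binds a second, nearby box. RBPJ, which is found in most cells and also carries the Notch signal, fills that place in the embryonic pancreas, and RBPJL, its relative that does not take part in Notch signalling, replaces it in mature acinar cells, where the complex drives the genes of digestive enzymes and Rbpjl itself. NR5A2, BHLHA15 and the GATA factors act beside PTF1 to keep the acinar state and its secretory machinery.

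The libraries held between 18622370 and 21002226 recovered reads each, and the CAF_CM libraries varied more among themselves than the control libraries did (biological coefficient of variation 8.23% against 2.20%). Of the acinar markers listed, 14 of 16 had values, with a summed level of 33409 to 39008 normalized counts in CAF_CM libraries and 64142 to 66647 in control libraries, and Cpa1, Cela1 and Ctrb1 were well above 0 in every library. Of 11 acinar markers tested, 7 fell and 0 rose (limma, adjusted p under 0.05), where 16.1% of all genes tested fell and 18.3% rose. At an unadjusted p under 0.05, 1 acinar marker rose. Of 19 fibroblast markers, 12 had values, and their summed level was 4386 to 4703 in CAF_CM and 4576 to 4689 in control libraries. Among them Col1a1 was at 12.5 ± 2.66 normalized counts in CAF_CM and 9.09 ± 2.74 in control libraries (SD, n = 3 each). Of 10 fibroblast markers tested, 1 rose (Col1a2) and 1 fell (Dcn), where 18.3% of all genes tested rose and 16.1% fell. The immune markers summed to 70.5 to 116 in CAF_CM and 118 to 132 in control libraries over 7 of 14 genes, and Ptprc, which defines leukocytes, was at 1.96 ± 0.955 in CAF_CM and 2.67 ± 1.47 in control libraries. The endothelial markers summed to 215 to 285 in CAF_CM and 251 to 275 in control libraries over 5 of 10 genes. The endocrine markers, with values for 11 of 18 genes, summed to 27558 to 29539 in CAF_CM and 36182 to 36697 in control libraries, most of it from Chga, at 23040.0 ± 943 normalized counts in CAF_CM and 31229 ± 208 in control libraries. The 13 of 14 ductal markers with values summed to 15707 to 18094 in CAF_CM and 19161 to 19233 in control libraries. Such sums follow the most abundant genes. Of 8 endocrine markers tested, 1 rose (Neurod1) and 1 fell (Chga), and of 11 ductal markers tested, 3 rose and 2 fell. Of all genes tested, 18.3% rose and 16.1% fell. The part of these marker levels in the results below was not tested.

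The 9 factor genes did not move together. Rbpjl fell, while its relative Rbpj, the E protein gene Tcf12, Nr5a2 and Gata4 rose and Ptf1a, Tcf3, Bhlha15 and Gata6 did not pass the test (limma, Benjamini-Hochberg adjusted p under 0.05 over all genes tested). This made 5 of 9 genes called in either direction, where 34.4% of all genes tested were called, with 4 of 9 higher, where 18.3% of all were higher, and 1 of 9 lower, where 16.1% of all were lower. The groups did not overlap for 6 of the 9 genes, as for 47.7% of all genes tested: the CAF_CM libraries were above for 5 (24.8% of all genes) and below for 1 (22.9%). The median log2 fold change of the 9 genes was 0.15, that of all genes tested 0.0046. Without control replicate 1 or control replicate 2 the genes called higher numbered 2, since Nr5a2 and Gata4 then missed the threshold, and the call on Rbpjl stood in each of the fits that left out 1 library. Over all genes tested, the calls without control replicate 1 numbered 1868 higher and 1659 lower, against 2953 and 2602 with all libraries, and without control replicate 2 they numbered 1967 and 1715. With library totals as the scaling they were 2231 higher and 3179 lower, and 3 of the 9 factor genes were higher. A fall or a rise here is in RNA per library, and fewer cells in a given state and less RNA per cell cannot be told apart.

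**Figure D1:**
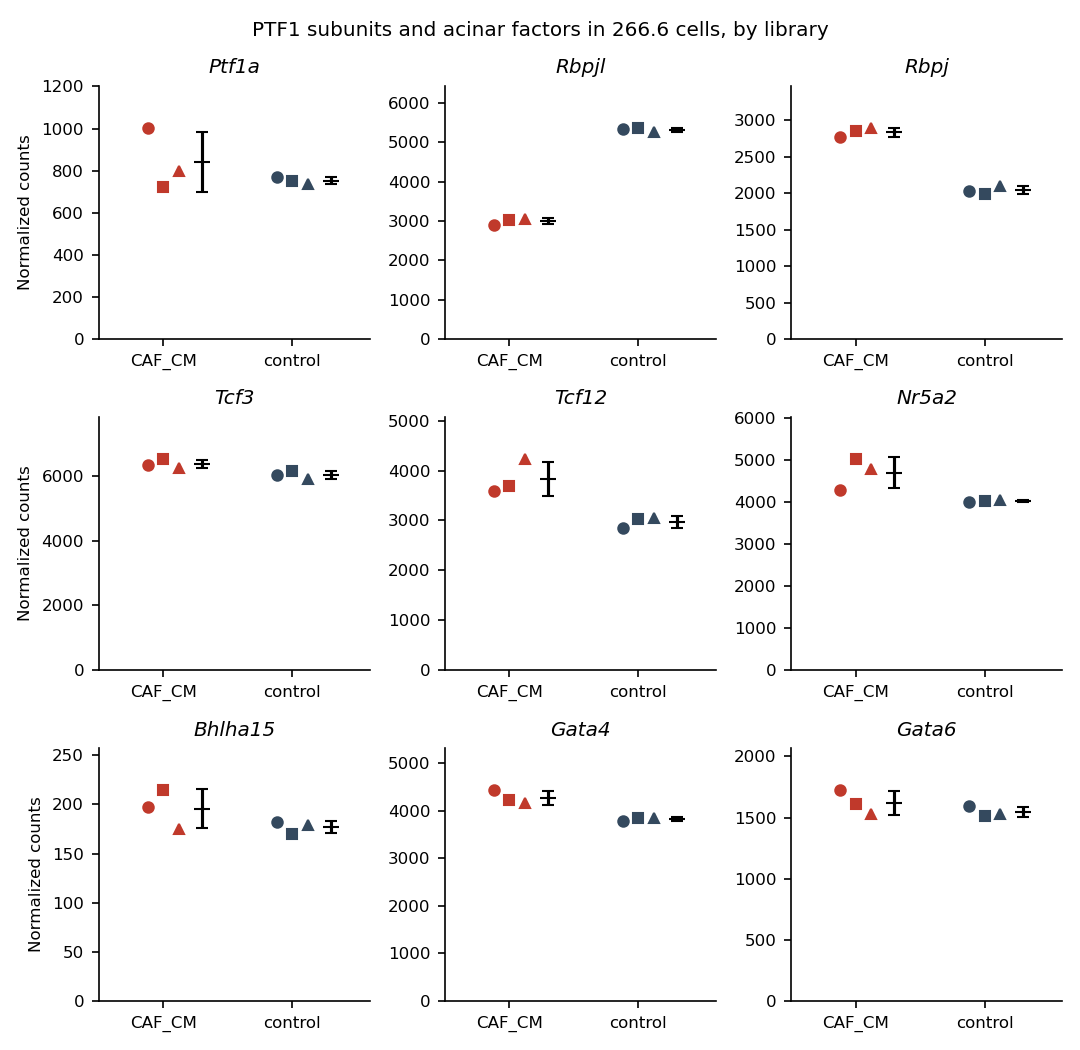
Normalized counts of the 9 factor genes (vertical axes, each from 0) in the 3 CAF_CM libraries (red) and the 3 control libraries (blue); circles, squares and triangles are replicates 1, 2 and 3, and black bars are the mean ± SD. Rbpjl lies at 2907 to 3060 in CAF_CM libraries and 5255 to 5357 in control libraries, and Ptf1a spreads from 722 to 1002 in CAF_CM libraries.

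The subunit that is particular to mature acinar cells had the largest change of the 9. Rbpjl had 2907, 3021 and 3060 normalized counts in CAF_CM replicates 1, 2 and 3, against 5335, 5357 and 5255 in control replicates 1, 2 and 3. Every CAF_CM library was far below every control library, and the libraries of each group lay close together, with a coefficient of variation of 2.66% in CAF_CM and 1.01% in control libraries. The log2 fold change was -0.83 (SE 0.04, 95% interval -0.93 to -0.73, limma, adjusted p = 1.63e-06), a 1.77-fold lower level. Among all genes tested this was place 483 from the lowest log2 fold change. In the annotation, Rbpjl shares 149 of its 5732 exon bases with Matn4 on the opposite strand, whose own values were 1545 ± 155 normalized counts in CAF_CM and 1796 ± 77.3 in control libraries (log2 fold change -0.22, limma, adjusted p = 0.0331). The labels do not say that the counting used strand, so reads in the shared bases could be of either gene.

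Rbpj, the DNA-binding protein of the Notch pathway and the form of the subunit that is used early in development, moved the other way. It had 2767, 2850 and 2890 normalized counts in CAF_CM replicates 1, 2 and 3, against 2028, 1991 and 2098 in control replicates 1, 2 and 3. All CAF_CM libraries were above all control libraries. The log2 fold change was 0.48 (SE 0.05, 95% interval 0.37 to 0.58, limma, adjusted p = 5.77e-05), a 1.39-fold higher level. After the correction for transcript length and GC content it was 0.31, still past the threshold (limma, adjusted p = 0.000157). The table also holds a row for Rbpj.ps3, a processed pseudogene of Rbpj, at 824 ± 92.8 normalized counts in CAF_CM and 486 ± 17.5 in control libraries (log2 fold change 0.75, limma, adjusted p = 9.64e-05). Near-identical copies share reads, so the split between Rbpj and Rbpj.ps3 is uncertain. With both rows summed, an alternative chosen after seeing the data, the log2 fold change was 0.53 (limma, adjusted p = 3.89e-05).

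Promoter windows of RefSeq on GRCm38.p6, from 250 bases before to 50 bases after an annotated start, are given for Rbpjl, which fell, for Rbpj, which rose, for Ptf1a, and for Ctrb1, the chymotrypsinogen B gene, as an enzyme gene that fell. Capitals mark the letters of an E-box (CANNTG) and of the RBPJ box (TGGGAA or its complement TTCCCA), searched on both strands. For Rbpj the first of 2 listed windows is printed. In Rbpjl the RBPJ box starts 104 bases and the nearer E-box 93 bases before the start, with 5 bases between them, and the E-box farther downstream starts at 82 bases. In Ctrb1 an E-box starts 205 bases and an RBPJ box 194 bases before the start, also with 5 bases between them. Their order is reversed and the RBPJ box is on the other strand, so the pair is that of Rbpjl turned around as a whole. In Rbpj 19 bases separate the closest E-box and RBPJ box, and the window of Ptf1a holds an RBPJ box but 0 E-boxes.
Rbpjl, chr2:164402944-164403243, plus strand: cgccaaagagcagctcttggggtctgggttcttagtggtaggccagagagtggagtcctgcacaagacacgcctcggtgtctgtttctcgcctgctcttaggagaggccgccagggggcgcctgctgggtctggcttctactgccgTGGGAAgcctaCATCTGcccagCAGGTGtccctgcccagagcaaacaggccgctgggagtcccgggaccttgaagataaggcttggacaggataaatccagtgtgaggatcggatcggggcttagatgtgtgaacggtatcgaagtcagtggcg
Rbpj, chr5:53590096-53590395, plus strand: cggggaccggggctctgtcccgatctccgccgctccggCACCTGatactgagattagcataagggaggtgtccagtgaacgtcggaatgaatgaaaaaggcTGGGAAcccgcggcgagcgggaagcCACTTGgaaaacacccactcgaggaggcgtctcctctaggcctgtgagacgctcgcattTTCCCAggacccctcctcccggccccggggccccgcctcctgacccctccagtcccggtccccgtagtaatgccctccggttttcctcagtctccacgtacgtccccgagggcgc
Ptf1a, chr2:19445413-19445712, plus strand: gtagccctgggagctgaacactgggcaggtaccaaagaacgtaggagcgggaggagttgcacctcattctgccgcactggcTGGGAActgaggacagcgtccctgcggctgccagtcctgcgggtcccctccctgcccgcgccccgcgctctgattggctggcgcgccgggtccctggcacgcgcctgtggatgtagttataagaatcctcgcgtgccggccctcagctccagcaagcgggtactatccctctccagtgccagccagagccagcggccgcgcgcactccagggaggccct
Ctrb1, chr8:111690961-111691260, minus strand: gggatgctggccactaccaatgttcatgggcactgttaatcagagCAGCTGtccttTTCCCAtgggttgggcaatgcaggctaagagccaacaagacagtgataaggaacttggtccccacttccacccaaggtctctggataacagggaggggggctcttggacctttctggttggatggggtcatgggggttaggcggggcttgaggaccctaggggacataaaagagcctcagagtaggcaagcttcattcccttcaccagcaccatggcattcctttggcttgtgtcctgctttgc

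Of all 32851 windows in the RefSeq table, 72.3% held an E-box, 25.6% an RBPJ box and 6.09% both with at most 25 bases between them. Of 24 windows of enzyme genes listed as PTF1-bound, 20 held an E-box, 14 an RBPJ box and 6 (25%) such a close pair. Of 17 of these genes that also had a test of expression, those with a close pair were Cel, Cpa1, Prss1, Reg1, Ctrb1 and Pnliprp1, of which 5 of 6 fell, and 3 of the 11 others fell, against 16.1% of all genes tested, a split noticed after the values were seen and not tested. Among those that fell, Prss1 with a close pair and Cela2a without one had very low values. Windows were listed for 7 of the 9 factor genes, all but Gata4 and Gata6, and 11 windows in all gave 2 with a close pair, those of Rbpjl and Rbpj. A GATA box (AGATAA, either strand), which 11.2% of all windows held, starts 31 bases before the start of Rbpjl. A match is a match of letters and shows no binding, and the shares were not tested against each other.

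**Figure D2:**
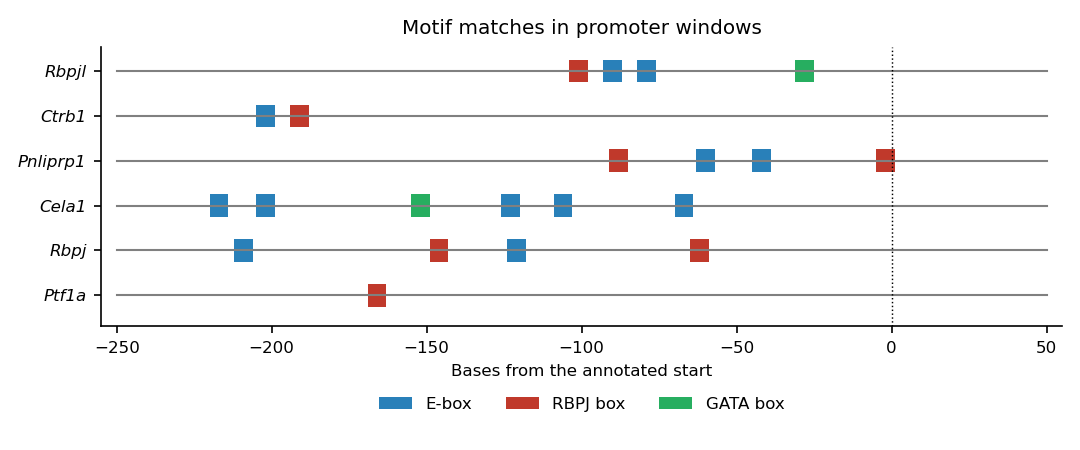
Positions of E-boxes (CANNTG, blue), RBPJ boxes (TGGGAA, red) and GATA boxes (AGATAA, green), on either strand, in bases from the annotated start (dotted line, horizontal axis) for 6 promoter windows. Rbpjl and Ctrb1 each have an E-box and an RBPJ box with 5 bases between them, whereas the Cela1 window has 5 E-boxes and 0 RBPJ boxes.

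Within each library, the ratio of Rbpjl to Rbpj is free of the scaling between libraries. It was 1.05, 1.06 and 1.06 in CAF_CM replicates 1, 2 and 3, against 2.63, 2.69 and 2.51 in control replicates 1, 2 and 3, as ratios of normalized counts. The 3 CAF_CM libraries were nearly alike and stood apart from the control libraries. On the log2 scale the means were 0.08 ± 0.01 in CAF_CM and 1.38 ± 0.05 in control libraries (SD, n = 3 each), a difference of -1.30 with an SE of 0.03, or a 2.47-fold lower ratio (exact two-sided permutation test, p = 0.10, the smallest that 3 against 3 libraries allow). Adjusted over the 3 ratios compared (Rbpjl to Rbpj, Tcf3 to Tcf12 and Gata4 to Gata6), the exact p was also 0.10. Per kilobase of the longest protein-coding transcript (2456 bases for Rbpjl, 5485 for Rbpj), the ratio was 2.36 ± 0.01 in CAF_CM and 5.83 ± 0.21 in control libraries, so Rbpjl was the more abundant of the pair in both groups on this scale. Its share of the per-kilobase sum of both genes was 70.2% ± 0.102 in CAF_CM and 85.3% ± 0.456 in control libraries. That sum was 1737 ± 43.9 normalized counts per kilobase in CAF_CM and 2536 ± 12.1 in control libraries.

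**Figure D3:**
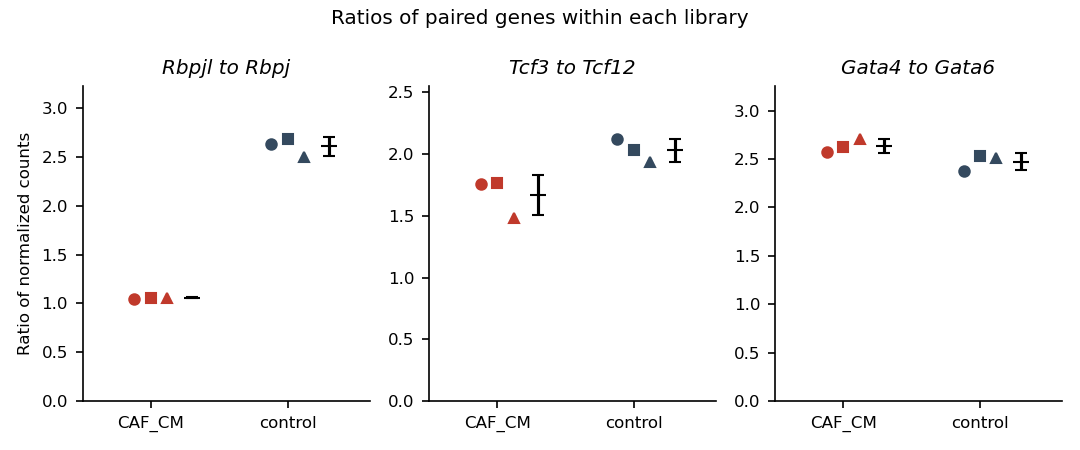
Ratios of normalized counts of Rbpjl to Rbpj, Tcf3 to Tcf12 and Gata4 to Gata6 (vertical axes, each from 0) in the 3 CAF_CM libraries (red) and the 3 control libraries (blue); circles, squares and triangles are replicates 1, 2 and 3, and black bars are the mean ± SD. The ratio of Rbpjl to Rbpj lies near 1.06 in all CAF_CM libraries and between 2.51 and 2.69 in control libraries.

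Ptf1a, the basic helix-loop-helix subunit that gives the complex its name, had 1002, 722 and 800 normalized counts in CAF_CM replicates 1, 2 and 3, against 772, 750 and 738 in control replicates 1, 2 and 3. The groups overlapped: CAF_CM replicate 2 was below every control library and CAF_CM replicate 1 above every other library. The coefficient of variation was 17.2% in CAF_CM and 2.26% in control libraries, the widest spread of the 9 genes in the treated group. The log2 fold change was 0.15 (SE 0.10, 95% interval -0.07 to 0.36, limma, adjusted p = 0.281), and the interval leaves room for a change of up to 0.36 upward. The value rests on single libraries. Without CAF_CM replicate 1 it was 0.01 (limma, adjusted p = 0.887), and without CAF_CM replicate 2 it was 0.25 and past the threshold (limma, adjusted p = 0.0361). After a correction for transcript length and GC content it was 0.21 (limma, adjusted p = 0.0769). Ptf1aos, which overlaps 609 of the 1508 exon bases of Ptf1a on the opposite strand, had 5.87 ± 2.87 normalized counts in CAF_CM and 7.07 ± 2.73 in control libraries.

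The ratio of Rbpjl to Ptf1a per kilobase was 1.78, 2.57 and 2.35 in CAF_CM replicates 1, 2 and 3, against 4.25, 4.39 and 4.37 in control replicates 1, 2 and 3. Every CAF_CM library was below every control library, with replicate 1, the highest in Ptf1a, the lowest in this ratio.

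The E proteins, broadly made partners of tissue-restricted basic helix-loop-helix proteins such as PTF1A, showed a rise of the less abundant genes. Tcf12, which encodes HEB, had 3594, 3690 and 4229 normalized counts in CAF_CM replicates 1, 2 and 3, against 2841, 3031 and 3050 in control replicates 1, 2 and 3. Every CAF_CM library was above every control library, with replicate 3 the highest. The log2 fold change was 0.36 (SE 0.06, 95% interval 0.23 to 0.50, limma, adjusted p = 0.00134). It was smaller, 0.17, after a correction for transcript length and GC content, and still past the threshold (limma, adjusted p = 0.0193). Tcf3, which encodes E12 and E47, had 6328, 6518 and 6256 normalized counts in CAF_CM replicates 1, 2 and 3, against 6042, 6152 and 5917 in control replicates 1, 2 and 3. The groups lay side by side without overlap, as they did for 24.8% of all genes tested with the CAF_CM libraries above, and the log2 fold change of 0.08 (SE 0.04, 95% interval -0.02 to 0.17, limma, adjusted p = 0.206) missed the threshold.

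The ratio of Tcf3 to Tcf12 was 1.76, 1.77 and 1.48 in CAF_CM replicates 1, 2 and 3, against 2.13, 2.03 and 1.94 in control replicates 1, 2 and 3, as ratios of normalized counts. All CAF_CM libraries were lower, with a log2 difference of -0.29 and an SE of 0.09 (exact two-sided permutation test, p = 0.10, the smallest possible). After the correction for length and GC content the log2 difference was -0.08 (exact permutation test, p = 0.40). Tcf4, the other E protein gene, rose to 3079 ± 112 normalized counts in CAF_CM libraries, against 2431 ± 122 in control libraries (log2 fold change 0.34, limma, adjusted p = 6.77e-04). Per kilobase, Tcf3, Tcf12 and Tcf4 together came to 3127 ± 50.02 normalized counts in CAF_CM and 2802 ± 51.2 in control libraries, and Tcf12 made up 19.5% ± 1.502 of that sum in CAF_CM and 16.9% ± 0.561 in control libraries.

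Nr5a2 encodes an orphan nuclear receptor that binds beside PTF1 at enzyme genes. It had 4278, 5011 and 4782 normalized counts in CAF_CM replicates 1, 2 and 3, against 4005, 4007 and 4038 in control replicates 1, 2 and 3. The CAF_CM libraries were all above the tightly grouped control libraries, and replicate 1 had the smallest excess. The log2 fold change was 0.22 (SE 0.06, 95% interval 0.09 to 0.35, limma, adjusted p = 0.0131). The call was lost after the correction for length and GC content (0.08, limma, adjusted p = 0.185), without control replicate 1 (limma, adjusted p = 0.0555) and without control replicate 2 (limma, adjusted p = 0.0572).

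Gata4 and Gata6 encode zinc finger factors that act in pancreatic progenitors, Gata6 also in the adult acinar cell. Gata4 had 4427, 4221 and 4151 normalized counts in CAF_CM replicates 1, 2 and 3, against 3783, 3842 and 3841 in control replicates 1, 2 and 3. Its groups did not overlap, and the log2 fold change was 0.16 (SE 0.05, 95% interval 0.06 to 0.26, limma, adjusted p = 0.0202). The call was lost with library totals as the scaling (0.11, limma, adjusted p = 0.0700), and without control replicate 1, 2 or 3 (limma, adjusted p = 0.0878, 0.0793 and 0.0731). Gata6 had 1724, 1608 and 1530 normalized counts in CAF_CM replicates 1, 2 and 3, against 1593, 1515 and 1531 in control replicates 1, 2 and 3. These groups overlapped, with CAF_CM replicate 3 among the control libraries, and the log2 fold change was 0.07 (SE 0.06, 95% interval -0.06 to 0.19, limma, adjusted p = 0.399). The ratio of Gata4 to Gata6 was 2.57, 2.62 and 2.71 in CAF_CM replicates 1, 2 and 3, against 2.37, 2.54 and 2.51 in control replicates 1, 2 and 3. Its log2 difference was 0.09 with an SE of 0.04 (exact two-sided permutation test, p = 0.10, the smallest possible), with no overlap between the groups.

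Bhlha15, also called Mist1, encodes the factor that scales up the secretory apparatus of acinar cells. It was the lowest of the 9 genes, with 198, 214 and 175 normalized counts in CAF_CM replicates 1, 2 and 3, against 182, 170 and 179 in control replicates 1, 2 and 3. The groups overlapped, since CAF_CM replicate 3 was within the control range. The log2 fold change was 0.14 (SE 0.10, 95% interval -0.09 to 0.36, limma, adjusted p = 0.326). Per kilobase, 28.7% of the genes tested that have a known length were below Bhlha15, and for the other 8 factor genes that share lay between 74.4% (Rbpj) and 94.8% (Tcf3).

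**Figure D4:**
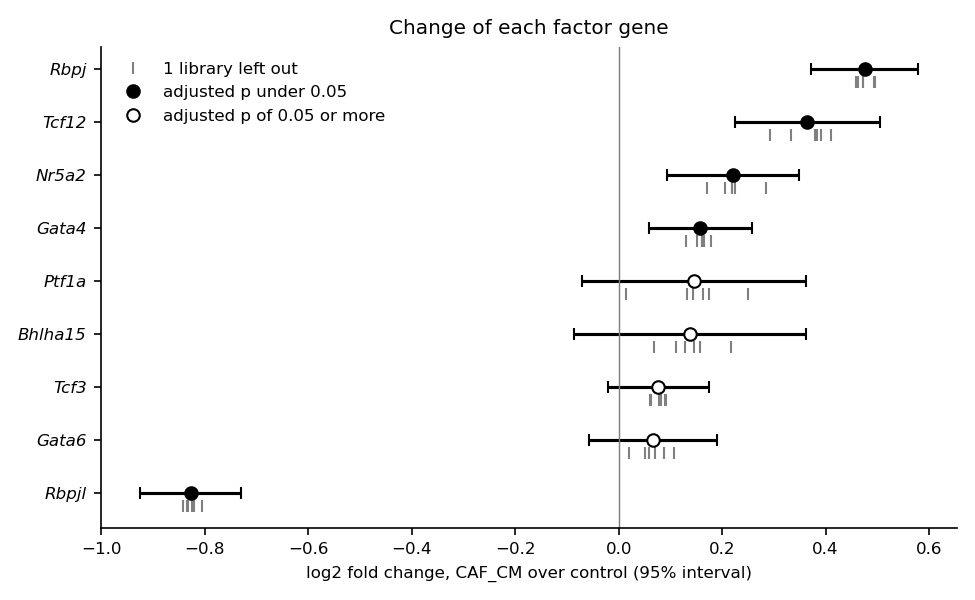
Log2 fold change of each factor gene, CAF_CM over control (horizontal axis), with its 95% interval from limma; filled points passed an adjusted p under 0.05, open points did not, and grey ticks are the values with 1 library left out. Rbpjl stands alone below 0 at -0.83, and the ticks of Ptf1a run from 0.01 to 0.25.

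Ordered by level per kilobase of transcript, the 9 genes stood in CAF_CM libraries as Tcf3 (2158 ± 46.0 normalized counts per kilobase), Gata4 (1255 ± 42.3), Rbpjl (1220 ± 32.5), Nr5a2 (991 ± 79.2), Tcf12 (609 ± 54.3), Ptf1a (558 ± 95.8), Rbpj (517 ± 11.5), Gata6 (501 ± 30.1) and Bhlha15 (56.0 ± 5.72). Gata4 and Rbpjl overlapped there, as did Tcf12 with Ptf1a, Ptf1a with Rbpj and Rbpj with Gata6. In control libraries the order was Rbpjl (2164 ± 21.8), Tcf3 (2046 ± 39.8), Gata4 (1124 ± 9.91), Nr5a2 (849 ± 3.92), Ptf1a (499 ± 11.3), Gata6 (478 ± 12.7), Tcf12 (472 ± 18.3), Rbpj (372 ± 9.82) and Bhlha15 (50.7 ± 1.73). The ranges of Ptf1a and Gata6 and of Gata6 and Tcf12 overlapped. Rbpjl was thus at the top of the order in control libraries and at place 3 in CAF_CM libraries, and Rbpj was at place 8 in control and place 7 in CAF_CM libraries. These levels assume the longest protein-coding transcript, and a shorter transcript in use would raise them.

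As genes that PTF1 drives, 29 digestive enzyme and secretory product genes were listed by symbol, with no measure of PTF1 binding here. Of the list, 20 genes were tested. Of these, 9 fell and 0 rose (limma; 1 was higher at an unadjusted p under 0.05, and 1 with DESeq2), against 16.1% of all genes lower and 18.3% higher, and the median log2 fold change was -0.36. The chymotrypsinogen gene Ctrb1 had 23668 ± 2338 normalized counts in CAF_CM and 45083 ± 997 in control libraries (log2 fold change -0.93, limma, adjusted p = 1.21e-05). The elastase gene Cela1 had a log2 fold change of -0.79 (limma, adjusted p = 4.98e-05), Amy2a5 one of -0.98 (adjusted p = 3.24e-04) and Pnliprp1, for a lipase-related protein, one of -0.69 (adjusted p = 5.35e-04). Amylase genes are near-identical copies, so the value of Amy2a5 alone is uncertain. The change of Rbpjl, -0.83, lay between those of Ctrb1 and Cela1. The other genes that fell were Try5, Reg1, Cela2a, Prss1 and Cel. All 7 acinar markers that fell (Ctrb1, Cela1, Amy2a5, Pnliprp1, Reg1, Cela2a and Cel) are among these genes. The falls of the acinar markers and of this list are thus not separate results. Cela2a (8.30 ± 3.56 in CAF_CM, 21.5 ± 1.81 in control libraries) and Prss1 (12.6 ± 5.52 and 23.8 ± 2.85) lay near the filter value of 10. Both were above that value in every control library but not in every CAF_CM library, so their falls carry little weight. Cpa1, for another pancreatic protease, was at 2280 ± 515 normalized counts in CAF_CM and 2062 ± 56.1 in control libraries (limma, adjusted p = 0.470). Without CAF_CM replicate 2, 1 gene of this list was higher. The same count was reached with the replicate number as a block, with separate weights for the groups and after the length and GC correction. Over all settings tried, between 7 and 10 genes of this list fell.

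**Figure D5:**
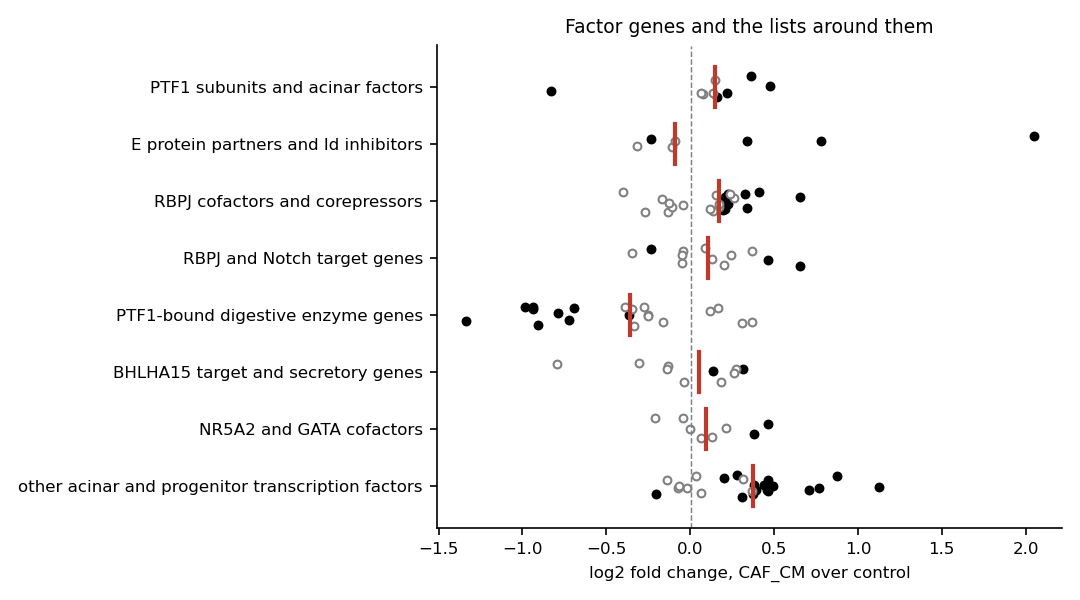
Log2 fold changes, CAF_CM over control (horizontal axis), of the tested genes of each list; filled points passed an adjusted p under 0.05 (limma), open points did not, red bars are list medians and the dashed line is the median of all genes tested, 0.0046. The enzyme genes have a median of -0.36 and the other acinar and progenitor factors one of 0.37.

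Of 7 partners and inhibitors of the E proteins tested, 3 rose and 1 fell, against 18.3% of all genes higher and 16.1% lower, with a median log2 fold change of -0.09. Neurod1, a basic helix-loop-helix factor of endocrine cells and neurons that pairs with E proteins as PTF1A does, had 233 ± 57.7 normalized counts in CAF_CM and 54.5 ± 3.30 in control libraries (log2 fold change 2.05, limma, adjusted p = 2.01e-05). Beside Tcf4 (0.34), Tal1, a partner of E proteins in blood cells, rose at a low level (0.78, limma, adjusted p = 0.0339). Id2, which binds E proteins and keeps them from DNA, fell (-0.23, limma, adjusted p = 0.00348). Without CAF_CM replicate 1, 4 genes of this list were lower, and the rises numbered 2 without CAF_CM replicate 1 or 3 or any control library.

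Genes for cofactors and corepressors of RBPJ, with which it activates or represses Notch targets, numbered 23 among those tested. Of these, 9 rose and 0 fell, against 18.3% of all genes higher and 16.1% lower (limma; 1 was lower at an unadjusted p under 0.05, and 0 were lower with edgeR or DESeq2), with a median log2 fold change of 0.17. The lowest adjusted p values were those of Maml1, the coactivator that joins RBPJ and the Notch fragment (0.33, limma, adjusted p = 0.00136), the deacetylase gene Hdac1 (0.20, adjusted p = 0.00493), the corepressor gene Ctbp1 (0.23, adjusted p = 0.00502) and the demethylase gene Kdm5a (0.34, adjusted p = 0.00952). Without control replicate 1 only 3 genes rose, and without control replicate 3 only 5. The rises over all genes tested dropped too, from 2953 to 1868 and 2087. Without CAF_CM replicate 2 there were 3 falls, where those over all genes went from 2602 to 2786. The length and GC correction gave 4 falls. Of 12 target genes of RBPJ and Notch signalling tested, with 18.3% of all genes higher and 16.1% lower, 2 rose (Sox9, 0.46, limma, adjusted p = 0.00312, and Notch3, 0.65, adjusted p = 0.0465) and 1 fell (Myc, -0.23, adjusted p = 0.0324). Hes1, the classic Notch target, had 323 ± 44.6 normalized counts in CAF_CM and 271 ± 19.98 in control libraries (limma, adjusted p = 0.0961). The rise was down to 1 gene with limma-voom or library totals, and without CAF_CM replicate 3 or any 1 control library. The fall was lost after the length and GC correction, and without any 1 control library. Notch3 was counted in both of these lists, and its groups overlapped (47.4 to 91.1 in CAF_CM, 36.6 to 49.1 in control libraries). Sox9 was also counted among the ductal markers and the other transcription factor genes below, as was Onecut1, which rose. Neurod1 was counted both as an endocrine marker and as an E protein partner.

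The genes listed as BHLHA15 targets or secretory genes gave 2 rises and 0 falls in 10 tested, near the 18.3% of all genes higher, with 16.1% lower (limma; 2 were lower at an unadjusted p under 0.05, and 0 were lower with edgeR or DESeq2), with a median of 0.05. They were Rab3d, a small GTPase of zymogen granules and a known BHLHA15 target (0.32, limma, adjusted p = 0.0105), and Sec23b, a coat protein of vesicles that leave the endoplasmic reticulum (0.14, adjusted p = 0.0429). Only 1 rose with edgeR, DESeq2 or limma-voom on recovered reads, with library totals and with no filter on low values. The same held without control replicate 1, 2 or 3. With library totals 1 gene fell, and without CAF_CM replicate 2 also 1. Of 8 cofactor genes of NR5A2 and the GATA factors, Ppargc1a (0.46, limma, adjusted p = 0.00699) and Ncoa2 (0.38, adjusted p = 0.00951) rose and 0 fell, against 18.3% of all genes higher and 16.1% lower (limma; also 0 at an unadjusted p under 0.05 and with edgeR or DESeq2), with a median of 0.10. Nr0b2, the corepressor that NR5A2 both induces and is held back by, had 328 ± 41.4 normalized counts in CAF_CM and 378 ± 23.9 in control libraries (limma, adjusted p = 0.118). Without CAF_CM replicate 1 this list gave 5 rises and 1 fall, and after the length and GC correction it gave 2 falls.

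Among 24 other transcription factor genes of acinar cells and pancreatic progenitors, 15 rose and 1 fell. The shares over all genes were 18.3% higher and 16.1% lower, and the median log2 fold change of the list was 0.37. Among those that rose were Sox11 (log2 fold change 0.45, limma, adjusted p = 2.52e-04), the pancreatic progenitor and beta cell factor Pdx1 (0.31, adjusted p = 4.92e-04) and Nkx6.1, which in mouse progenitors is opposed by PTF1A (64.5 ± 6.63 in CAF_CM, against 29.0 ± 3.73 in control libraries, 1.13, adjusted p = 6.84e-04). Foxa2 was the gene that fell, and that call was lost without CAF_CM replicate 3 or any of control replicates 1, 2 and 3. Over all settings tried, between 10 and 15 genes of this list rose. After the length and GC correction 11 rose and 2 fell.

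Over the 6 libraries, the 5 genes whose log2 values most resembled those of Rbpjl, among 10626 with a mean of at least 100 normalized counts, were Hprt, Brf1, Magef1, Wdr24 and Ccnl2, with Pearson r of 0.997 to 0.998. The libraries form 2 groups, so any gene with a fall and little spread scores high, and 75 genes exceeded 0.99. Ccnl2 alone of these 5 had a fall of the size of Rbpjl, to 3163 ± 50.2 normalized counts in CAF_CM, against 5506 ± 82.5 in control libraries. For Ptf1a they were Snx17, Tomm40, Ppm1g, Srsf2 and Samm50, with r of 0.993 to 0.998 (9 genes above 0.99). In these 5 genes, as in Ptf1a, CAF_CM replicate 1 was the highest library and the groups overlapped. They were picked for this likeness over the same libraries, so the shared pattern follows from the choice.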

How the data were processed

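The RNA of 6 samples of the 266.6 line was made into libraries with a TruSeq RNA kit from Illumina, per the labels' protocols. FastQC, DESeq2 and the human build hg19 are named in the submitters' processing notes, while the symbols are mouse symbols; aligner, counting program and mouse build are not given in the sources used here. The deposited values are a signal: reads per gene that the authors divided by 1 factor per library. Dividing by the worth of 1 read, 0.949 to 1.05 depending on the library, gave back whole reads for 100% of values (tolerance 0.001). Of 20764 rows, 168 without a symbol (0.153% to 0.261% of reads) were left out, and the lowest row total was 10 reads.

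limma 3.58.1 in R 4.3.3, with a variance trend, tested log2(value + 1) of the 16169 genes that reached 10 in 3 or more libraries. p-values were adjusted over all of them by the Benjamini-Hochberg method, with a threshold of 0.05. This scale understates fold changes of low genes. edgeR 4.0.16, DESeq2 1.42.0 and limma-voom on recovered reads were alternatives, and the test was checked on simulated data. Ratios within a library were compared by exact permutation, and lists are described by counts alone. The 9 genes, the 7 further lists and the tests were chosen with earlier results of these data known. Named genes were the 9, in each list up to 4 called genes with the lowest adjusted p (2 genes if the list had no call), and the 5 genes most like Rbpjl and Ptf1a; other list genes were named after their values were seen. A gene that this rule names is not reported here. Transcript lengths (for 95.0% of genes tested) and exon overlaps came from GENCODE M21, promoter windows from RefSeq (GRCm38.p6). Same-numbered libraries of the 2 groups were checked for pairing and not treated as pairs.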

Additional observations from a re-analysis of the deposited data

How the results depend on the processing

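Rbpjl kept its fall and its call under all 20 alternatives (log2 fold change -0.87 to -0.77, highest adjusted p over limma, edgeR and DESeq2 8.66e-05), as Rbpj kept its rise (0.31 to 0.53, highest adjusted p = 0.00126) and Tcf12 its own (0.17 to 0.41, highest adjusted p = 0.0193). With 1 library left out, the factor genes called higher numbered 2 to 5 and that called lower 1 each time, and the log2 difference of the ratio of Rbpjl to Rbpj ran from -1.33 to -1.28. After the length and GC correction that difference was -1.08, and with Rbpj.ps3 added to Rbpj it was -1.36. The call on Nr5a2 was lost in 3 and that on Gata4 in 4 alternatives, and Ptf1a gained a call in 1. No alternative turned the direction of any of the 9 genes or of the 3 ratios.

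Libraries with the same replicate number in the 2 groups had deviations that correlated at 0.07, 0.03 and 0.03, below the 0.1 asked for, so the numbers were not taken as pairs, although each library correlated best with its own number. With the number as a block, 4 factor genes were higher and 1 lower, as without it, and the block gave the ratio of Rbpjl to Rbpj the same difference of -1.30 (exact sign-flip test, p = 0.25, the smallest possible). Over all genes tested, calls numbered 1868 to 3509 higher and 1659 to 2943 lower with 1 library left out, and 2231 higher and 3179 lower with library totals. Library totals moved the median log2 fold change of all genes to -0.04. Of the 9 genes, Rbpjl, Rbpj and Tcf12 passed in every fit listed.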
